A study of Mus musculus with 4 samples.

Results

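Interferon-stimulated genes encode the proteins that a cell makes when it has sensed an interferon: antiviral effectors, sensors of foreign nucleic acid, and the factors that carry or limit the signal. They were examined here in melanocyte stem cells of the mouse, which renew the pigment cells of hair follicles, sorted from skin by flow cytometry. A list of 41 genes was read from the gene count tables by symbol, with the genes of antigen presentation and the immunoproteasome left out. Of these, 40 were found among the 27933 genes of the tables, and Mx2 was not analysed here. The control group was given saline (n = 2) and the stressed group RTX (n = 2), with injection 12 h before harvest. The labels spell out neither RTX nor the strain, genotype, sex, age or sort markers of the mice, and they do not say whether libraries of a group came from separate animals, so p-values reflect only how far these libraries differ, possibly for technical reasons. Going by its title, the study asks how overactive sympathetic nerves deplete these stem cells, and the comparison here asks which of the listed transcripts differed between the groups.

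As background, type I interferons bind the receptor pair IFNAR1 and IFNAR2, whose kinases JAK1 and TYK2 activate STAT proteins. A complex that contains STAT2 and IRF9 then binds the interferon-stimulated response element, a promoter motif whose core is GAAA, 2 bases of any kind and GAAA again. Type II interferon acts through IFNGR1 and IFNGR2, and STAT dimers bind the gamma-activated site TTCNNNGAA. Several of the induced proteins (IRF7, STAT2, the RNA helicases) feed back on the pathway, and melanocytes are known to respond to interferon in skin inflammation.

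The RefSeq promoter table (GRCm38.p6, 250 bases before and 50 after each start) held 31 of the genes, and the core (on the other strand TTTC, 2 bases and TTTC), searched on both strands with overlapping matches allowed, lay in a promoter of 14 of them (45.2%). Over all genes of that table the share was 3.99% (1079 of 27025), and over the promoters of genes tested here 3.62%. Windows of 60 bases upstream of the start are shown for some of the genes with a match there, because they display the core that the genes shown share. They are the first in order of edgeR p among genes reported with library values below. Genes without an upstream match were passed over, some of them with a smaller p. Each is written 5′ to 3′ on the strand of the gene, with the matches in capitals.
Rsad2, chr12:26456538-26456597, minus strand: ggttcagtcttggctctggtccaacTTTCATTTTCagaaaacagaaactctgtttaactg
Isg15, chr4:156200850-156200909, minus strand: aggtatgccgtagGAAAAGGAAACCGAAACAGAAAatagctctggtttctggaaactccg
Bst2, chr8:71537562-71537621, minus strand: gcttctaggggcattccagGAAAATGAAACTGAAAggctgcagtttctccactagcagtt
Oas1a, chr5:120907526-120907585, minus strand: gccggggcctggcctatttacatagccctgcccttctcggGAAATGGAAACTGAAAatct
Ifit1, chr19:34640779-34640838, plus strand: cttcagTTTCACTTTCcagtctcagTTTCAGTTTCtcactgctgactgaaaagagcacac
Stat2, chr10:128270251-128270310, plus strand: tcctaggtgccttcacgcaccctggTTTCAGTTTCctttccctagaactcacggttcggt
Gbp3, chr3:142559964-142560023, plus strand: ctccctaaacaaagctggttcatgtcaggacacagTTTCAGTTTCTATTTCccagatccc
Ifit3, chr19:34583382-34583441, plus strand: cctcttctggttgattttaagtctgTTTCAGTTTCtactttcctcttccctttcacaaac

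Isg15 held 3 overlapping matches, with the nearest beginning 66 bases before the start, and 7 of the 31 genes held at least 2. The match nearest to the start began 120 bases upstream in Rsad2, 14 bases in Oas1a and 222 bases in Stat2. For 25 of the 31 genes, the 30 bases after at least 1 RefSeq start were found in a GENCODE M21 transcript of the gene. They were not found for the starts used for Oas1a, Bst2, Stat2 and Ifit3, so distances in these genes depend on the RefSeq start. TTCNNNGAA, which reads the same on both strands, lay in a promoter of 7 of the 31 genes (22.6%), against 9.55% over the whole table, and 13 genes had neither motif. A match describes letters in this window and is not evidence of binding.

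Libraries held 9273652 to 11854280 counts, and 3 counts, the most that a count of 0 allows, corresponded to 0.254 to 0.321 CPM. CPM is the usual depth-scaled count, with library sizes adjusted here by the trimmed mean of M values (TMM), and values are given for replicate 1 and then replicate 2 of each group. All 10 melanocyte lineage markers were detected in every library, and they summed to 23590 and 22860 CPM in controls and 41020 and 38520 CPM in stressed cells. DESeq2 called 3 of them higher (against 1.73% of all tested genes) and 0 lower (against 2.67%). The 14 keratinocyte markers summed to 28150 and 16880 CPM in controls and 10620 and 9117 CPM in stressed cells. Of these, DESeq2 called 8 lower (against 2.67% of all tested genes) and 0 higher (against 1.73%). The part of these shifts in the results below was not tested. Markers of leukocytes in general were close to 0. Their 6 genes summed to 3.43 and 4.58 CPM in the controls and to 1.5 and 1.0 CPM in the stressed libraries, and Ptprc (CD45) did not exceed 0.563 CPM. The T cell genes Cd2, Cd8a and Cd4, the neutrophil genes Csf3r, Ly6g, Retnlg and Mmp8, and the plasmacytoid dendritic cell gene Siglech had 0 counts in all 4 libraries. Other genes of these lists were detected, such as S100a8 (neutrophil) at 4.82 and 6.35 CPM in controls and 7.42 and 4.46 CPM in stressed cells. Plasmacytoid dendritic cell markers summed to 227 and 304 against 287 and 343 CPM, mostly from Tcf4 and Bst2. Schwann cell markers summed to 817 and 1060 against 973 and 762 CPM, and fibroblast markers to 6.11 and 17.4 against 23.5 and 12.8 CPM. The 15 macrophage and dendritic cell markers summed to 42.1 and 122 CPM in controls and 38 and 32.4 CPM in stressed cells. The excess in control replicate 2 lay largely in H2-Ab1, H2-Aa and Cd74, genes of MHC class II presentation, at 49.0, 14.9 and 35.3 CPM there.

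In the stressed cells most interferon-stimulated genes lay higher than in control cells, among them the ubiquitin-like protein gene Isg15 and the antiviral effector genes Rsad2 and Bst2. Of the 38 genes that passed the low-count filter, 35 (92.1%) had a fitted log2 fold change above 0, against 49.1% of all 13348 tested genes, and the median was 1.16 against -0.01. The value was at least 1 in 21 of the 38 (55.3%, against 4.01% of all). DESeq2 called 11 of the 38 higher at an adjusted p below 0.05 (28.9%, against 1.73% of all tested genes) and 0 lower (against 2.67%): Irf7, Isg15, Herc6, Zbp1, Oasl1, Rsad2, Cmpk2, Bst2, Eif2ak2, Ifi44 and Parp9. The edgeR quasi-likelihood test, the main test, called none of them and none of all genes (0%). At an unadjusted p below 0.05, edgeR placed 21 of the 38 higher (55.3%, against 5.17% of all) and 1 lower (2.63%, against 7.6%), and limma-voom, which likewise called 0 genes, placed 24 higher (against 5.6%) and 1 lower (against 7.14%). Both stressed libraries exceeded both controls in 28 of the 38 (73.7%, against 21.8% of all tested genes) and lay below both in Ifi27 alone (against 22.9%). Zbp1, Oasl1 and Oas1a passed the filter through the stressed libraries alone, so that a difference was built into their being tested. Without them 35 genes remained, of which 32 had a value above 0, 18 had a value of at least 1, 25 had both stressed libraries above both controls, 18 were higher at an unadjusted edgeR p below 0.05 and 9 were called higher by DESeq2, with a median of 1.14. The genes were selected with earlier results of these libraries in view, so these shares describe them and are not an independent test. In RNA from sorted populations, a change in the level per cell and a change in the share of cells that express a gene cannot be told apart.

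**Figure D1:**
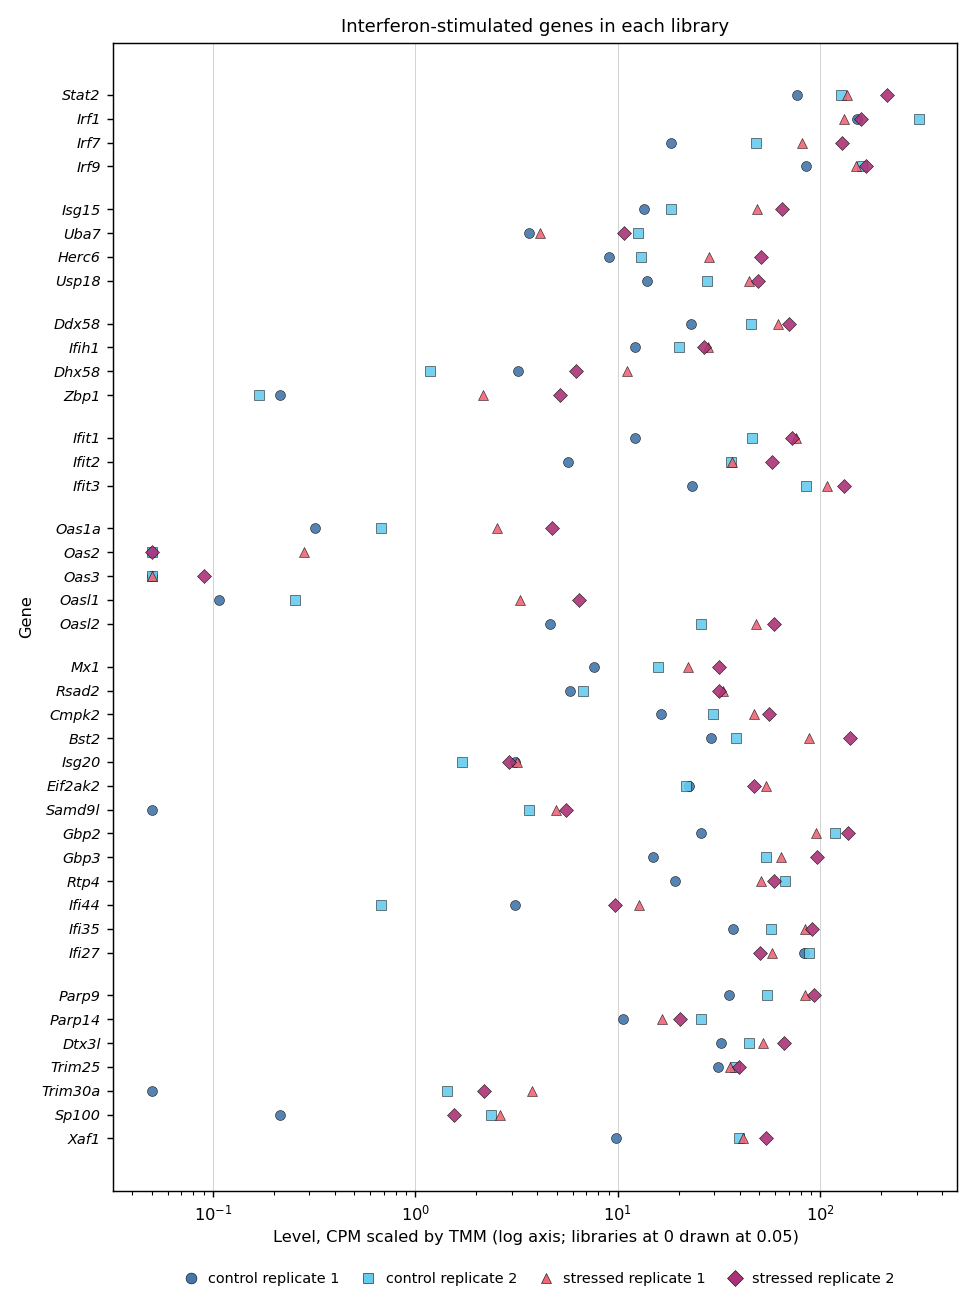
Level of each of the 40 interferon-stimulated genes in each library, in TMM-scaled CPM on a log axis, grouped by role, with 1 point per library and libraries at 0 drawn at 0.05. For most genes the circles of control replicate 1 lie furthest left and the 2 stressed libraries furthest right, with control replicate 2 between them.

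The controls were not alike in these genes. Control replicate 2 lay above control replicate 1 in 33 of the 38 (86.8%, against 50.2% of all tested genes), by a median of 0.88 log2 units (0.00 over all genes), and 18 genes above 0 in both controls were more than 2-fold apart. In the stressed pair 2 of the 38 were more than 2-fold apart. The shares of all tested genes that were more than 2-fold apart were not computed. Over all genes the control pair also differed more than the stressed pair (chi-square per degree of freedom 44.0 against 15.0). Summed over the 40 genes, levels were 843 and 1682 CPM in controls and 1852 and 2317 CPM in stressed cells. Against control replicate 2 alone the median log2 fold change was 0.67 with 30 of 38 genes above 0 (over all genes 0.02, with 6874 of 13326). Against control replicate 1 alone it was 1.84 with 35 of 38 (over all genes 0.02, with 6815 of 13327). Against either control taken singly 29 genes were higher and 2 lower (Irf1 and Ifi27), and 6 were higher against control replicate 1 but not against control replicate 2. DESeq2 called 7 higher and 1 lower without control replicate 1 (against 1.97% and 1.46% of all genes), and 24 higher and 0 lower without control replicate 2 (against 2.36% and 3.42%). Without stressed replicate 1 it called 4 higher (against 0.273%), namely Irf7, Isg15, Herc6 and Bst2, and 0 lower (against 0.747%). Without stressed replicate 2 it called 0 higher (against 0.0933%) and 0 lower (against 0.222%), and gave Zbp1 and Oasl1 no adjusted p. edgeR called 10 higher and 1 lower without control replicate 1 (against 2.2% and 2.33%) and 22 higher and 0 lower without control replicate 2 (against 1.63% and 3.71%). With all libraries and no low-count filter, 40 genes were tested, and edgeR called 18 of them higher (against 1.35%) and 0 lower (against 2.67%).

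**Figure D2:**
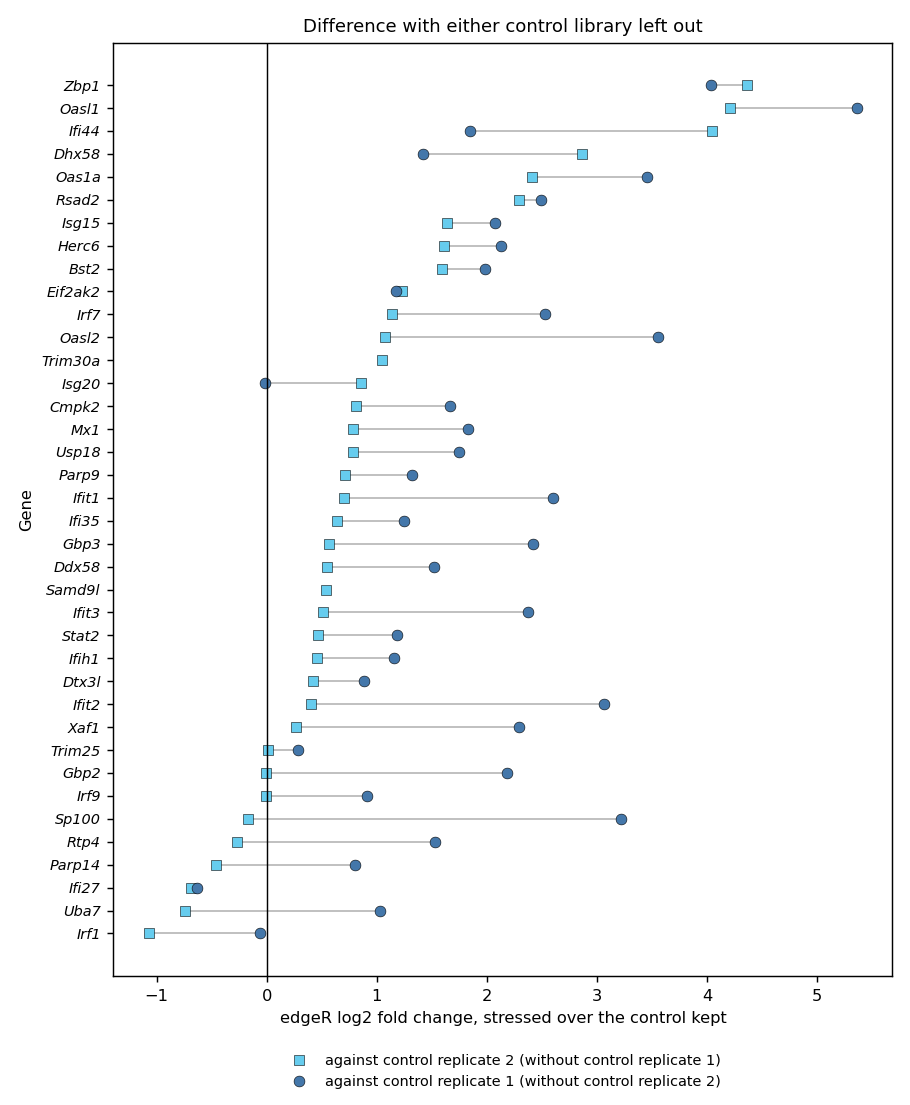
Fitted edgeR log2 fold change of the stressed libraries over the single control library kept, for the 38 tested genes, with squares against control replicate 2 and circles against control replicate 1. Rsad2, Isg15, Bst2, Herc6 and Eif2ak2 differ little between the 2 symbols, whereas Ifit1, Ifit2, Ifit3, Gbp2 and Xaf1 lie near 0 to 0.70 against control replicate 2 and between 2.18 and 3.06 against control replicate 1. Circles of Samd9l and Trim30a are left out because control replicate 1 had 0 counts.

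Of the 4 transcription factors listed, Irf7 alone was called by DESeq2. Irf7 (chromosome 7, 141262706-141266481, mm10), the amplifier of interferon gene expression, was at 18.2 and 48.0 CPM in controls and 81.5 and 129 CPM in stressed cells. Both stressed libraries were above both controls, and it rose by DESeq2 with a log2 fold change of 1.67 (SE 0.44, adjusted p = 0.00757). By edgeR the value was 1.66 (SE 0.46, adjusted p = 0.241), and against control replicate 2 alone 1.14. Stat2, which encodes the STAT bound by IRF9, was at 76.8 and 127 CPM in controls and 136 and 213 CPM in stressed cells, with DESeq2 adjusted p = 0.211. The groups did not overlap, but stressed replicate 1 was close to control replicate 2. Irf9, which encodes the DNA-binding partner of STAT2, was at 85.1 and 161 CPM in controls and 150 and 169 CPM in stressed cells, so that the groups overlapped, and its fitted log2 value of 0.37 (edgeR SE 0.31) was -0.01 without control replicate 1. Irf1, an early factor induced strongly by type II interferon, ran the other way, at 152 and 307 CPM in controls and 131 and 158 CPM in stressed cells. Its log2 value of -0.67 (edgeR SE 0.34) was -0.06 without control replicate 2, and DESeq2 called it lower without control replicate 1 (adjusted p = 0.000999) but not with all libraries (adjusted p = 0.385).

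Isg15 and Herc6 rose by DESeq2 among the 4 genes of the ISG15 system, which tags proteins with a ubiquitin-like modifier. Isg15 (chromosome 4, 156199424-156200818), the modifier itself, was at 13.5 and 18.3 CPM in controls and 48.6 and 64.6 CPM in stressed cells. The groups were well separated, and Isg15 rose by DESeq2 by 1.84 log2 units (SE 0.33, adjusted p = 8.95e-06), against an edgeR value of 1.83 (SE 0.28, adjusted p = 0.121). Herc6 (chromosome 6, 57581000-57664632), which encodes the mouse ligase for ISG15, was at 9 and 13.1 CPM in controls and 28.1 and 50.8 CPM in stressed cells, and rose by DESeq2 by 1.84 (SE 0.43, adjusted p = 0.0012). Usp18, the protease that removes ISG15 and restrains the receptor, was at 13.9 and 27.5 CPM in controls and 44.5 and 49.2 CPM in stressed cells, just short of a DESeq2 call at adjusted p = 0.0563. Uba7, the activating enzyme, was at 3.64 and 12.5 CPM in controls and 4.13 and 10.7 CPM in stressed cells, with overlapping groups. Its log2 value of -0.13 (edgeR SE 0.71) turned to 1.03 without control replicate 2 and 0.40 without stressed replicate 1.

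For all 4 sensors the stressed libraries exceeded each control (against 21.8% of all tested genes). DESeq2 called Zbp1 alone, which passed the low-count filter only through the stressed libraries. Ddx58, which encodes the RNA helicase RIG-I, was at 22.9 and 45.4 CPM in controls and 61.5 and 70.0 CPM in stressed cells, with an edgeR log2 value of 0.94 (SE 0.34) and an unadjusted p of 0.0294. Ifih1, which encodes MDA5, the sensor of long double-stranded RNA, was at 12.2 and 20 CPM in controls and 27.8 and 26.7 CPM in stressed cells. Dhx58, the related helicase LGP2, was at 3.21 and 1.19 CPM in controls and 11.1 and 6.18 CPM in stressed cells, with control replicate 1 the higher control. Zbp1 (chromosome 2, 173206612-173218923), a sensor of Z-form nucleic acid that can trigger necroptosis, had 2 counts in each control, and 23 and 57 in stressed cells. The ratio of stressed to control CPM, from summed counts, was 19.5 (exact 95% binomial interval 7.34 to 73.4, for counting error only), and it rose by DESeq2 (adjusted p = 0.0208), a call lost without either control (adjusted p = 0.127 and 0.143) or without stressed replicate 1 (adjusted p = 0.308).

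The IFIT genes, whose products bind foreign RNA, differed widely between the controls. They lie together on chromosome 19, with 7112 bp between Ifit2 and Ifit3. Ifit1 was at 12.2 and 45.8 CPM in controls and 75.5 and 72.3 CPM in stressed cells. Ifit2 was at 5.68 and 36.3 CPM in controls and 36.7 and 58.0 CPM in stressed cells, so that control replicate 2 and stressed replicate 1 were nearly level. Ifit3 was at 23.1 and 84.6 CPM in controls and 108 and 130 CPM in stressed cells. Stressed libraries exceeded both controls in all 3 (against 21.8% of all tested genes). None of the 3 was called by DESeq2 with all libraries (adjusted p = 0.122 for Ifit1, 0.827 for Ifit2 and 0.208 for Ifit3). Their log2 values of 1.34, 1.17 and 1.14 became 0.70, 0.40 and 0.51 without control replicate 1, and 2.60, 3.06 and 2.37 without control replicate 2. In GENCODE M21 transcripts 51.2% of the 50-base stretches of Ifit3 also occur in Ifit3b. At the minimum mapping quality of 30 used for counting, reads that match both genes equally may be left out, so both may be undercounted.

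Among the OAS genes, which encode enzymes and related proteins activated by double-stranded RNA, Oasl1 and Oasl2 were higher while Oas2 and Oas3 were near 0. Oasl1 (chromosome 5, 114923240-114937915), which restrains the translation of Irf7, had 1 and 3 counts in controls against 35 and 71 in stressed cells. The ratio of stressed to control CPM was 25.9 (exact 95% binomial interval 9.81 to 96.7, for counting error only), and Oasl1 rose by DESeq2 (adjusted p = 0.00317). It passed the low-count filter only through the stressed libraries, so a difference was built into its being tested. Its neighbour Oasl2, 11006 bp away, was far more abundant, at 4.61 and 25.8 CPM in controls and 48.3 and 59.3 CPM in stressed cells, with DESeq2 adjusted p = 0.0623. Oas1a, which also passed the filter only through the stressed libraries, had 3 and 8 counts in controls against 27 and 52 in stressed cells. Its ratio was 7.01 (3.71 to 14.6, exact 95% binomial interval for counting error only), with DESeq2 adjusted p = 0.119. It shares 57.6% of its 50-base stretches with Oas1g. Oas2 had 3 counts in stressed replicate 1 and 0 elsewhere, and Oas3 had 1 count in stressed replicate 2 and 0 elsewhere, so both fell below the filter.

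Rsad2 and Bst2 led the remaining effectors. Rsad2 (chromosome 12, 26442753-26456452), which encodes viperin, a radical SAM enzyme that makes a chain-terminating nucleotide, was at 5.79 and 6.69 CPM in controls and 33.2 and 31.7 CPM in stressed cells. Libraries of each group were nearly level, and it rose by DESeq2 by 2.38 log2 units (SE 0.37, adjusted p = 6.18e-08). Its edgeR value of 2.38 (SE 0.28, adjusted p = 0.115) had the smallest p of the 38 genes. Cmpk2, the nucleotide kinase gene 12752 bp from Rsad2, was at 16.3 and 29.6 CPM in controls and 46.8 and 55.8 CPM in stressed cells. Cmpk2 rose by DESeq2 by 1.17 (SE 0.37, adjusted p = 0.0418), a call lost without control replicate 1 and without either stressed library. Bst2 (chromosome 8, 71534264-71537437), which encodes tetherin, a membrane protein that holds budding virus at the cell surface, was at 28.9 and 38.1 CPM in controls and 87.8 and 140 CPM in stressed cells. It rose by DESeq2 by 1.77 (SE 0.32, adjusted p = 8.92e-06), and remained called without stressed replicate 1 but not without stressed replicate 2. Bst2 was also in the list of plasmacytoid dendritic cell markers, of which Siglech had 0 counts. Tcf4 of that list was at 194 and 264 CPM in controls and 198 and 202 CPM in stressed cells. Eif2ak2 (chromosome 17, 78852564-78882573), which encodes the double-stranded RNA kinase PKR, was at 22.5 and 21.7 CPM in controls and 53.9 and 47.2 CPM in stressed cells. It rose by DESeq2 by 1.20 (SE 0.29, adjusted p = 0.0023), and its log2 values against control replicates 2 and 1 taken singly, 1.23 and 1.17, were close.

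Of the 9 effectors that remain, DESeq2 called Ifi44 alone. Mx1, a dynamin-like GTPase gene, was at 7.61 and 15.8 CPM in controls and 22.3 and 31.6 CPM in stressed cells, with DESeq2 adjusted p = 0.147. Ifi44 was at 3.11 and 0.678 CPM in controls and 12.8 and 9.73 CPM in stressed cells. It rose by DESeq2 by 2.59 (SE 0.77, adjusted p = 0.023), a call lost without control replicate 2 and without either stressed library. Ifi35, which encodes a leucine zipper protein, was at 37.0 and 56.8 CPM in controls and 83.7 and 91.2 CPM in stressed cells (DESeq2 adjusted p = 0.0541), and 16.8% of its exon bases are shared with Gm11626. The GTPase gene Gbp3 was at 14.9 and 54.1 CPM in controls and 63.6 and 95.9 CPM in stressed cells. Its paralogue Gbp2 was at 25.7 and 118 CPM in controls and 95.1 and 137 CPM in stressed cells, with overlapping groups. Rtp4 was at 19.1 and 66.8 CPM in controls and 50.8 and 58.9 CPM in stressed cells, between the controls. Without control replicate 1 the log2 values of Gbp2 and Rtp4 turned from 0.69 and 0.35 to -0.01 and -0.27. Ifi27, which encodes a small hydrophobic protein of organelle membranes, was the exception, at 83.5 and 87.7 CPM in controls and 57.5 and 50.2 CPM in stressed cells. Both stressed libraries lay below both controls, with an edgeR log2 value of -0.67 (SE 0.18, unadjusted p = 0.00889, adjusted p = 0.234) and DESeq2 adjusted p = 0.111. Samd9l, a translation inhibitor gene, had 0 and 43 counts in controls against 53 and 61 in stressed cells, and the exonuclease gene Isg20 had 29 and 20 against 34 and 32.

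Of the PARP, TRIM and nuclear body genes, Parp9 rose and the others did not pass DESeq2. Parp9 (chromosome 16, 35938470-35972605), which encodes an ADP-ribose binding partner of the ligase DTX3L, was at 35.4 and 54.6 CPM in controls and 83.7 and 92.9 CPM in stressed cells. It rose by DESeq2 by 0.98 (SE 0.30, adjusted p = 0.0309), a call lost without control replicate 1 and without either stressed library. Dtx3l, whose exons share 458 bases with those of Parp9, was at 32.1 and 44.6 CPM in controls and 51.9 and 65.9 CPM in stressed cells, with DESeq2 adjusted p = 0.348. Xaf1, which encodes an antagonist of the apoptosis inhibitor XIAP, was at 9.75 and 39.8 CPM in controls and 41.3 and 54.0 CPM in stressed cells. Trim25, the ubiquitin ligase gene that supports RIG-I, was level at 31.3 and 37.9 CPM in controls and 36.0 and 39.8 CPM in stressed cells, with a log2 value of 0.13 (edgeR SE 0.23). Parp14, which encodes a mono-ADP-ribosyltransferase, was at 10.6 and 25.6 CPM in controls and 16.5 and 20.4 CPM in stressed cells. Trim30a had 0 and 17 counts in controls against 40 and 24 in stressed cells, and the nuclear body gene Sp100 had 2 and 28 against 28 and 17.

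**Figure D3:**
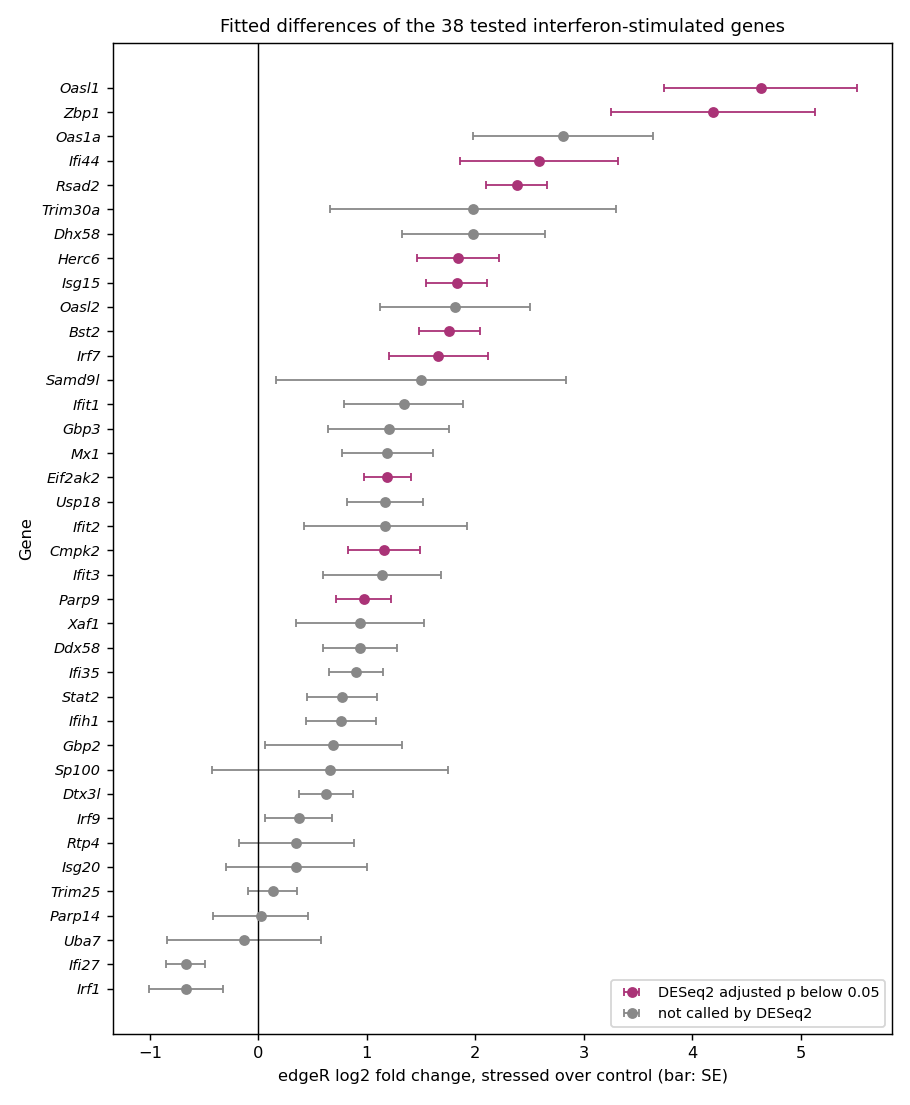
Fitted edgeR log2 fold change, stressed over control, of the 38 tested interferon-stimulated genes, with the standard error as a bar and the 11 genes called by DESeq2 in purple. Of the points, 35 lie right of 0, and Irf1, Ifi27 and Uba7 lie left of it.

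Levels differed widely between the genes. Per kilobase of exon, control levels were highest for Ifi27 at 58.3 CPM per kb, Irf1 at 57.7 and Bst2 at 43.9, each a mean of 2 libraries. In stressed cells Bst2 came first at 149 CPM per kb, followed by Isg15 at 74.9, Ifit3 at 68.4 and Ifi35 at 50.7. The value of Ifit3 may be too low because of the sequence it shares with Ifit3b. Isg15 stood at 21 CPM per kb in controls and Rsad2 at 1.44, with 7.51 in stressed cells. The response element core was found in 4 of 9 genes called by DESeq2 that had a promoter in the RefSeq table (44.4%) and in 9 of 21 tested but not called (42.9%). The gamma-activated site was found in 2 of 9 and in 5 of 21.

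Interferon transcripts themselves were at or near 0. Of 21 interferon genes, 18, among them Ifnb1 and Ifng, had 0 counts in all 4 libraries, and the highest count of any was 2, for Ifnk in stressed replicate 2. A count of 0 allows up to 0.254 to 0.321 CPM in these libraries, so lower levels were not detectable.

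Receptors and their kinases were detected in all 4 libraries. Ifnar1 and Ifnar2, the type I receptor pair, were at 118 ± 23.5 and 85.9 ± 28.6 CPM in controls and 126 ± 4.5 and 89.9 ± 15.2 CPM in stressed cells (SD, n = 2). Ifngr1 was at 124 and 142 CPM in controls and 108 and 79.7 CPM in stressed cells, and Ifngr2 at 73.0 and 47.9 against 61.0 and 60.5 CPM. Ifnlr1, the type III receptor chain, was at 22.7 and 16.7 CPM in controls and 14.2 and 10.1 CPM in stressed cells. In Ifngr1 and Ifnlr1 both stressed libraries lay below both controls (as in 22.9% of all tested genes), with edgeR log2 values of -0.51 (SE 0.21) and -0.70 (SE 0.33). Jak1 was at 351 ± 21 and 360.5 ± 18.8 CPM and Tyk2 at 85.6 ± 32.1 and 92.7 ± 0.79 CPM in controls and stressed cells (SD, n = 2). Of 9 receptor and kinase genes 0 were called by DESeq2 (against 1.73% higher and 2.67% lower of all tested genes). At an unadjusted p below 0.05, edgeR placed 0 (against 5.17% higher and 7.6% lower) and limma-voom 1 lower (against 7.14%). With 9 genes these counts are near the background. Those of Ifnar1, Ifnar2, Jak1 and Tyk2 (0.10, 0.06, 0.04 and 0.11) had SEs of 0.20, 0.27, 0.18 and 0.27, and each changed sign when some single library was left out.

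Among other factors of the pathway, Stat3 rose by DESeq2 and Irf5 fell, and neither call held without stressed replicate 1 or 2. Stat3 (chromosome 11, 100885098-100939540), the STAT of interleukin 6 family signals, was at 295 and 422 CPM in controls and 595 and 768 CPM in stressed cells (DESeq2 adjusted p = 0.0113), and the DESeq2 call was lost with either stressed library or control replicate 1 left out. Irf5, a factor of inflammatory cytokine genes, was at 25.7 and 19.5 CPM in controls and 8.36 and 7.64 CPM in stressed cells (DESeq2 adjusted p = 0.0106). Its DESeq2 call was lost with any 1 library left out (adjusted p = 0.0621 to 0.821), while both stressed libraries lay below both controls. Irf3, the constitutive factor downstream of the sensors, was at 87.1 and 106 CPM in controls and 90.1 and 84.3 CPM in stressed cells. Socs1, the feedback inhibitor of JAK kinases, was at 6.54 and 12.6 CPM in controls and 4.41 and 5.0 CPM in stressed cells, with an edgeR log2 value of -1.03 (SE 0.48). None of 8 inhibitor genes was called by DESeq2 (against 1.73% higher and 2.67% lower of all tested genes). At unadjusted p under 0.05, edgeR put 1 lower (against 7.6%) and 0 higher (against 5.17%). For 8 genes these counts are near the background. The gene put lower, Ptpn6, encodes a phosphatase and was at 22.0 and 24.4 CPM in controls and 13.3 and 10.7 CPM in stressed cells.

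**Figure D4:**
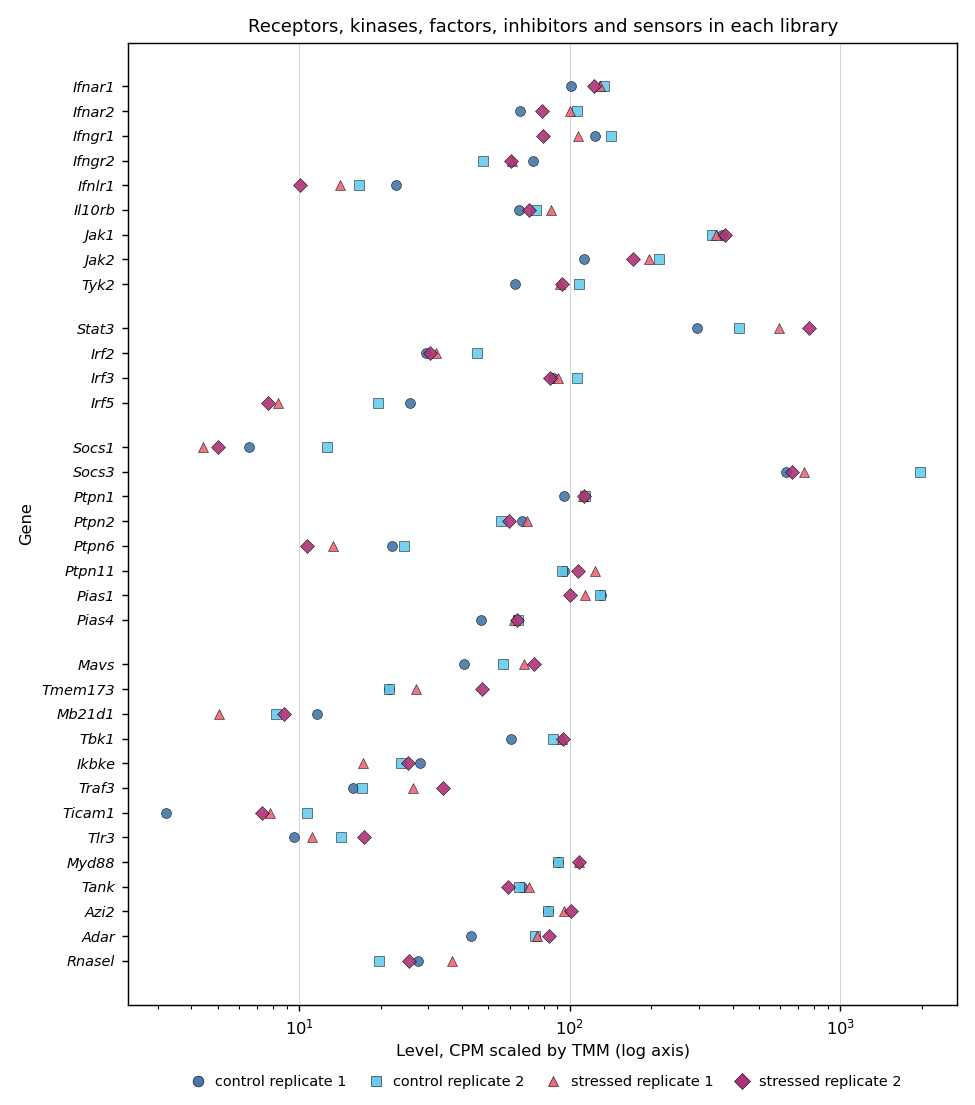
Level in each library, in TMM-scaled CPM on a log axis, of receptor, kinase, factor, inhibitor and sensing genes of the interferon pathway outside the 41 that passed the low-count filter. Stat3, Mavs and Traf3 have both stressed libraries right of both controls, Irf5, Socs1 and Ptpn6 have them left, and the points of Jak1 and Ifnar1 fall close together.

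Genes of nucleic acid sensing upstream of interferon were detected as well. Mavs, the mitochondrial adaptor of RIG-I and MDA5, was at 40.8 and 56.7 CPM in controls and 67.9 and 73.7 CPM in stressed cells (edgeR unadjusted p = 0.051). Tmem173, which encodes STING, was at 21.4 CPM in both controls and at 26.9 and 47.3 CPM in stressed cells. Mb21d1, which encodes the DNA sensor cGAS, was at 11.7 and 8.22 CPM in controls and 5.07 and 8.82 CPM in stressed cells. Adar, the editor of double-stranded RNA, was at 43.2 and 74.4 CPM in controls and 75.8 and 84.1 CPM in stressed cells. Of 13 tested genes of this kind 0 were called by DESeq2 (against 1.73% higher and 2.67% lower), and edgeR put 2 higher (Tmem173 and Traf3, against 5.17%) and 0 lower (against 7.6%) at unadjusted p under 0.05. For 13 genes these counts do not stand apart from the background.

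Other inducible genes listed beside the 41 had a lower median. Of 56, 39 were tested, with 30 above 0 (against 49.1% of all tested genes). Their median log2 fold change was 0.41 (against -0.01 over all tested genes), and it became 0.18 without control replicate 1 and 0.81 without control replicate 2. DESeq2 called 4 higher (10.3%, against the same 1.73%), namely Rnf213, Parp12, Lgals9 and Ifitm3, and 0 lower (against 2.67%). Rnf213, which encodes a giant ubiquitin ligase, was at 8.25 and 19.7 CPM in controls and 36.4 and 60.5 CPM in stressed cells (DESeq2 adjusted p = 0.00661). Parp12 was at 47.8 and 57.6 CPM in controls and 82.0 and 142 CPM in stressed cells (DESeq2 adjusted p = 0.0239), and Lgals9, which encodes galectin 9, at 68.0 and 54.6 against 124 and 97.1 CPM (DESeq2 adjusted p = 0.0351). Oas1g had 0 counts in both controls and 11 and 12 in the stressed libraries, and shares much of its sequence with Oas1a. It was at least 3.69-fold higher when 3 counts per control library are taken as the floor. Oas1g and Trim5 passed the low-count filter through the stressed libraries alone, and Oas1c and Sp140 through the controls alone. A difference was thus built into their being tested, and the count above 0 and the median include them. Ifitm3, whose product blocks viral entry at endosomes, was at 182 and 220 CPM in controls and 292 and 360 CPM in stressed cells (DESeq2 adjusted p = 0.0497). DESeq2 kept none of these 4 calls without stressed replicate 1 or without stressed replicate 2. It kept Lgals9 alone without control replicate 1, and the other 3 without control replicate 2.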

How the data were processed

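The deposited tables hold raw counts of reads for each gene, which featureCounts 1.6.1 counted, per the file headers, over exons of an mm10 annotation at a minimum mapping quality of 30, with neither a strand nor a paired-end option. Named in the submitters' processing notes are STAR 2.5.3, Trim Galore 0.4.1 and DESeq2 1.22.2. Without strand, reads of overlapping genes cannot be told apart. Per the file headers, the alignments behind stressed replicates 1 and 2 are numbered 2 and 3. Libraries of a group differed beyond sampling noise (chi-square per degree of freedom 44.0 for controls and 15.0 for stressed) and each counted as 1 replicate.

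In R 4.3.3, the main test was the quasi-likelihood F-test of edgeR 4.0.16 (filterByExpr with a minimum count of 10, TMM, group as the only term, Benjamini-Hochberg over all 13348 tested genes). DESeq2 1.42.0 and limma 3.58.1 (voom) were alternatives, with a threshold of 0.05. The scripts were tested on simulated data. SE by edgeR is the absolute log2 fold change over the square root of F. A fit without 1 library takes the spread from the group that still has 2. Library values were given for tested genes called by DESeq2 or edgeR, at an unadjusted edgeR p below 0.05, or with a mean of at least 20 CPM, and for 14 pathway genes, of which 1 is not reported here, plus 6 more of smallest p. The other 6 tested interferon-stimulated genes are named with levels or counts, as the rule provides. Ifitm3, Ptpn6, Traf3 and Ifnlr1 fall outside this rule and were chosen after their values were seen. Genes and lists were chosen with earlier results of these data known.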

Additional observations from a re-analysis of the deposited data

How the results depend on the processing

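By edgeR the count of called genes was 0 of all genes, of the 38 and of the 74 tested pathway genes, with 1705, 22 and 13 at an unadjusted p below 0.05. It stayed 0 with DESeq2 size factors, the stricter low-count filter (5 CPM in 2 libraries) and limma-voom. With no low-count filter it was 760, 18 and 7 (of 18926, 40 and 88 tested), and with the DESeq2 Wald test 587, 11 and 7. With 1 library left out it ranged from 0 to 739 over all genes, 0 to 22 among the 38 and 0 to 8 among the pathway genes. Leaving out control replicate 1 gave 628, 11 and 3, leaving out control replicate 2 gave the highest counts, and leaving out either stressed library gave 0. The median log2 fold change of the 38, 1.16, ranged from 0.67 with control replicate 1 left out to 1.84 with control replicate 2 left out (also with Samd9l and Trim30a at their bounds of 4.03 and 3.21). DESeq2, with each library left out (chosen after seeing the data), called 44 to 800 genes and 0 to 24 of the 38 (142 and 4 without stressed replicate 1), and 6 of its 11 were called without either control (Irf7, Isg15, Herc6, Rsad2, Bst2 and Eif2ak2). The cause of these shifts was not tested.

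Of the listed and pathway genes named in the report, these changed the sign of their log2 value, or reached 0, with 1 library left out. Values ranged from -0.01 to 0.91 for Irf9, -0.01 to 2.18 for Gbp2, -0.27 to 1.53 for Rtp4, -0.96 to 1.03 for Uba7, -0.46 to 0.80 for Parp14, -0.17 to 3.22 for Sp100, -0.02 to 0.86 for Isg20, -0.08 to 0.33 for Ifnar1, -0.23 to 0.46 for Ifnar2 (-0.11 without stressed replicate 1), -0.26 to 0.36 for Ifngr2, -0.02 to 0.12 for Jak1 (-0.01 without stressed replicate 2), -0.21 to 0.56 for Tyk2 and -0.27 to 0.00 for Irf3. The sign also changed for Socs3 (-1.48 to 0.15), Irgm1 (-0.44 to 1.43), Irgm2 (-0.55 to 0.77), Igtp (-0.40 to 0.89) and Ifit3b (-0.14 to 1.17). The labels do not say that equal replicate numbers mark shared animals or days, and with 2 pairs the correlation of same-numbered deviations, 0.172, does not settle it. With the replicate number as a block, edgeR called 0 genes (1926 at an unadjusted p below 0.05), 0 of the 38 and 0 pathway genes, and the median was 1.24. Depth limits Zbp1, Oasl1, Oas1a, Oas2 and Oas3, with at most 8 counts in a control library.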

Other observations

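Immunity-related GTPases, which attack pathogen vacuoles and respond strongly to type II interferon, did not separate the groups. The genes of this paragraph were picked after their values were seen. Irgm1 was at 89.8 and 330 CPM in controls (replicate 1, then 2) and 214 and 268 CPM in stressed cells. Irgm2 was at 28.9 and 72.6 CPM in controls and 49.2 and 49.1 CPM in stressed cells, and Igtp at 26.4 and 65.0 against 45.3 and 52.0 CPM. In all 3 both stressed libraries lay between the controls. The chemokine gene Cxcl9 had its few counts in the controls, at 1.18 and 0.424 CPM. It was listed at 0 in both stressed libraries, which allows up to 0.282 and 0.273 CPM. The more abundant chemokine gene Cxcl10 went the other way, at 13.6 and 26.2 CPM in controls and 32.0 and 26.8 CPM in stressed cells. Socs3, a feedback inhibitor of cytokine receptors, was at 630 and 1966 CPM in controls and 733 and 663 CPM in stressed cells, with control replicate 2 far above the other 3 libraries.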
